A study of Homo sapiens with 45 samples.

Results

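The 34 genes described here belong to the unfolded protein response and the integrated stress response, a pair of linked programmes that act when protein folding or amino acid supply fails. They were taken by name from a list of stress sensors, transcription factors, chaperones and metabolic enzymes. Each gene was read from the brightest of its probe sets that carried 1 gene symbol. All 34 members were on the array and passed the filter on dim probe sets, out of 15599 genes tested in all.

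When unfolded proteins accumulate in the endoplasmic reticulum (ER), the sensors ERN1 (IRE1), EIF2AK3 (PERK) and ATF6 are released from the chaperone HSPA5 (BiP) and activate transcription programmes for folding and degradation. EIF2AK3 and other kinases also phosphorylate the initiation factor eIF2, which slows translation but favours the factor ATF4. ATF4 then induces amino acid synthesis and transport genes, feedback inhibitors and the death-linked factor DDIT3 (CHOP), an arm that low amino acids or double-stranded RNA can start without ER stress.

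The study compared the response of 3 human cancer cell lines to 3 microRNA precursors. Of these established lines, HEY and SKOV3 came from ovarian cancer and PC3 from prostate cancer. Cells received 33 nM of 1 synthetic Pre-miR precursor with a Lipofectamine lipid carrier, either a negative control called miR-NC or one of miR-203a, miR-205 and miR-429. RNA was taken after 48 h. A further group of each line was labelled untransfected. Each of the 15 groups held 3 arrays, 45 in all, and total RNA was amplified from its 3′ end before labelling with biotin. In cultures measured in bulk, fewer expressing cells and less RNA per cell cannot be told apart. Only 1 dose and 1 time were used, every transfected group carried the lipid and a small RNA, and nothing in the labels tells if a group's 3 arrays were hybridised with RNA of separate cultures. The p-values therefore measure only the spread between arrays, which may be technical. Arrays have no read depth, and 3 arrays in a group limit the precision.

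The mature sequences of the 3 microRNAs are shown because their seeds set which messages each can pair with. They are given 5′ to 3′ from RefSeq (GRCh38.p14), with the seed (bases 2 to 8) in capitals. The labels do not name the arm, so the arm shown for the 2 hairpins with named arms is the usual one.
hsa-miR-203a-3p: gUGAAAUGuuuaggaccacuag
hsa-miR-205-5p: uCCUUCAUuccaccggagucug
hsa-miR-429: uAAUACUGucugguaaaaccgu
No seed was shared between them. The genes lie at chr14:104117469-104117490, chr1:209432166-209432187 and chr1:1169055-1169076, all on the plus strand.

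The promoters of members hold letter patterns linked to these pathways. Only a short stretch just before the RefSeq start, of the same length for every gene, was searched on both strands. This covered 32 members (PDIA3 and SLC7A11 are not in the table), using the window listed at the top for a gene with several. The ER stress element, CCAAT then 9 bases then CCACG, was in 6 members (XBP1, HSPA5, HSP90B1, CALR, CANX and CRELD2), 18.8% of them, against 0.0806% of 27305 windows. The related second element, ATTGG then 1 base then CCACG, was in SDF2L1 and HERPUD1, 6.25% against 0.0513%. The core of the ATF4 and C/EBP element, TGATG then 1 base then AA, was in ATF3, ASNS, CHAC1, PPP1R15B and HERPUD1, 15.6% against 3.19%. The letters TGACGTG, a core bound by XBP1 and ATF6, were in 0 of 32, against 1.71%. The patterns do not overlap each other in these windows. A match is a description only, and a pattern outside the stretch searched would be missed.

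The 120 bases that hold the pattern are shown for 6 members that the PC3 results turn on, from RefSeq (GRCh38.p14), 5′ to 3′ on the gene's strand, with the letters of the pattern in capitals on whichever strand it lies. PPP1R15B and HERPUD1, which also hold the ATF4 core, are not among them.
HSPA5: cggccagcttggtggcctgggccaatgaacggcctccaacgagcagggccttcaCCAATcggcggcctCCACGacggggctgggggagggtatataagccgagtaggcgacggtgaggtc
CRELD2: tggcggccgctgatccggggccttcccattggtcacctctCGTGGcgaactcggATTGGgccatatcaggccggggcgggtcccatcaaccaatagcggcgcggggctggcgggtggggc
SDF2L1: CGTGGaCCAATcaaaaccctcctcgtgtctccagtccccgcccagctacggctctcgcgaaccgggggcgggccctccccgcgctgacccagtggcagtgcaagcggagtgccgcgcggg
ASNS: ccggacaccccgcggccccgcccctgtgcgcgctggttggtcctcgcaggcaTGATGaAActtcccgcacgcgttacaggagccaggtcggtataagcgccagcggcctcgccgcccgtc
CHAC1: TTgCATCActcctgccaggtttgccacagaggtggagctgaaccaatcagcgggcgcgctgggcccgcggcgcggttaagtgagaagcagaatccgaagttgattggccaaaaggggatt
ATF3: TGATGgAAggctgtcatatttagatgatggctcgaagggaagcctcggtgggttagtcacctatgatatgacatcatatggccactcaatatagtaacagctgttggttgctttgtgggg
They lie at chr9:125241344-125241463 (minus strand), chr22:49918514-49918633 (plus), chr22:21642114-21642233 (plus), chr7:97872409-97872528 (minus), chr15:40953262-40953381 (plus) and chr1:212565216-212565335 (plus), in the order shown, each upstream of the annotated start.

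Several features of the whole series bear on the values. Arrays labelled untransfected went against their line. Of 84 genes on only in transfected SKOV3 cells, 92.9% were on in the arrays labelled untransfected HEY. Of 45 such HEY genes, 100% were on in the arrays labelled untransfected PC3. ERBB2, which SKOV3 cells are known to overexpress, read 12.31 in the arrays labelled untransfected HEY and 11.33 in SKOV3 miR-NC, against 6.83 in HEY miR-NC. HOXB13, a prostate marker, read 6.56 in PC3 miR-NC and 6.70 in SKOV3 miR-NC, so it did not set the transfected PC3 arrays apart, while it read 11.73 in the arrays labelled untransfected SKOV3. The blood cell genes PTPRC and CD3E stayed below the median of all values (4.89) in every group. For this reason miR-NC of the same line served as the control throughout, and counts are also given without the 9 arrays labelled untransfected. The control probe set at the 5′ end of GAPDH differed from miR-NC by 3.92 (log2) in HEY miR-205, by −2.11 in HEY miR-429, by 4.95 in PC3 miR-203a and by 3.66 in PC3 miR-205. In the other 5 comparisons it differed by at most 0.58 in size. At the 5′ end of ACTB the difference was 1.22 in HEY miR-205, −0.97 in HEY miR-429, 3.73 in PC3 miR-203a and 2.73 in PC3 miR-205. It was 0.75 in HEY miR-203a. At the 3′ end it was −0.03, 0.33, 0.23 and 0.35 for ACTB in those 4 comparisons, in the same order. For GAPDH the 3′ end differed by 1.48, 1.31, 2.01 and 1.82. The labels do not give RNA quality. The members changed most often in those 4 comparisons, and so did all genes. In the same order 76.5%, 47.1%, 50% and 76.5% of members were called, against 65.8%, 56.8%, 56.1% and 48.4% of all genes. The part of these controls in the results was not tested.

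In PC3 cells 9 of 13 ER folding factors were higher with miR-203a, where 31.1% of all genes were called higher. With miR-205 they numbered 10 of 13, against 28.7% of all genes. In that comparison 8 of 10 targets of the integrated stress response were higher too. These roles were assigned with the values seen, and both groups differed from miR-NC in the control probe sets above. In HEY cells 8 of the 13 folding factors were higher and 4 lower with miR-205, against 33.6% and 32.2% of all genes. With miR-429, 7 were higher and 4 lower, against 21% and 35.7%. There, probe sets of HSPA5, PDIA3, PDIA4, PDIA6, CANX and DNAJC3 were called in both directions. The sensor ERN1 and the cochaperone DNAJB9 were lower with both precursors. With all arrays in the fit, SKOV3 cells had 4 members called with miR-203a, 10 with miR-205 and 2 with miR-429. The shares of all genes called were 11.9%, 25.6% and 22.1%. Among these calls were higher DNAJB9 with miR-203a and miR-205 and lower SEL1L with both. These counts rested on the fit. In a fit of SKOV3 arrays alone they were 9, 16 and 11, against 17.2%, 35.7% and 32.2% of all genes. Higher HSPA5 was then called with each precursor. A gene is called changed here when limma's moderated test gives a Benjamini-Hochberg adjusted p below 0.05 over all 15599 genes, and differences are on the log2 scale of the deposited intensities.

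With miR-205, PC3 cells had 25 members higher and 1 lower, where 28.7% of all genes were called higher and 19.7% lower. The members' median difference was 0.82, against 0.05 over all genes. With miR-203a, PC3 cells had 15 members higher and 2 lower, with 31.1% and 25% of all genes called, and the medians were 0.46 and 0.06. With miR-429, PC3 cells had 6 members higher and 6 lower, 17.6% each, where 16.3% of all genes were higher and 29.7% lower. That last split rested on the scaling. With each array's median subtracted, 18 members were higher and 2 lower, and the median of all genes moved from −0.13 to 0.29. In that setting 53.1% of all genes were called, and 77.2% of the called genes were higher. Quantile normalization over all arrays gave 4 higher and 5 lower, nearer to the first split, where 32.1% of all genes were called.

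HEY cells had 12 members higher and 14 lower with miR-205, where 33.6% and 32.2% of all genes were called, so the count itself was near the background. With miR-429 HEY cells had 8 members higher and 8 lower, against 21% and 35.7% of all genes. Subtracting array medians turned that split into 8 higher and 5 lower, while quantile normalization left it at 8 and 8. Those settings called 56% and 56.2% of all genes. With miR-203a HEY cells had 7 members called, each of them higher, against 5.82% and 7.33% of all genes. The 7 called members fell to 3 without replicate 2 of HEY miR-203a or without replicate 3 of HEY miR-NC.

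In SKOV3 cells 2 members were higher and 2 lower with miR-203a, against 7.06% and 4.88% of all genes. With miR-205 the counts were 7 higher and 3 lower, against 16.8% and 8.81%. With miR-429 the 2 called members were higher, against 14.9% and 7.18%. Quantile normalization over all arrays gave 3 higher and 3 lower for miR-205 and 2 higher and 4 lower for miR-429. That setting called 24.4% and 22.1% of all genes. The 4 called members of miR-203a became 2 without replicate 1 of SKOV3 miR-203a. For miR-205 the 10 became 6 without replicate 1 or 3 of SKOV3 miR-205 or without replicate 2 of SKOV3 miR-NC.

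The arrays labelled untransfected enter the shared estimate of error. ATF3 and CHAC1 varied by 1.76 and 1.91 (SD, n = 3) in those labelled HEY, and the SE of an ATF3 difference was 0.38 with all arrays and 0.18 without them. Without these arrays 23 members were called in PC3 with miR-203a (21 higher), 27 with miR-205 (26 higher) and 18 with miR-429 (10 higher). In HEY cells the counts were 10 (9 higher), 28 (12 higher) and 22 (9 higher) in the same order. In SKOV3 cells they were 7 (4 higher), 13 (10 higher) and 7 (4 higher). Of all genes, the same fit called 60.2%, 52.8% and 51.1% in PC3, 17.6%, 68.3% and 60.1% in HEY, and 15.7%, 31% and 27.8% in SKOV3, higher and lower together. The 18 members of PC3 miR-429 are thus a share near that of all genes. The 3 comparisons of a line share its miR-NC arrays, so their values are set side by side and not correlated.

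**Figure D1:**
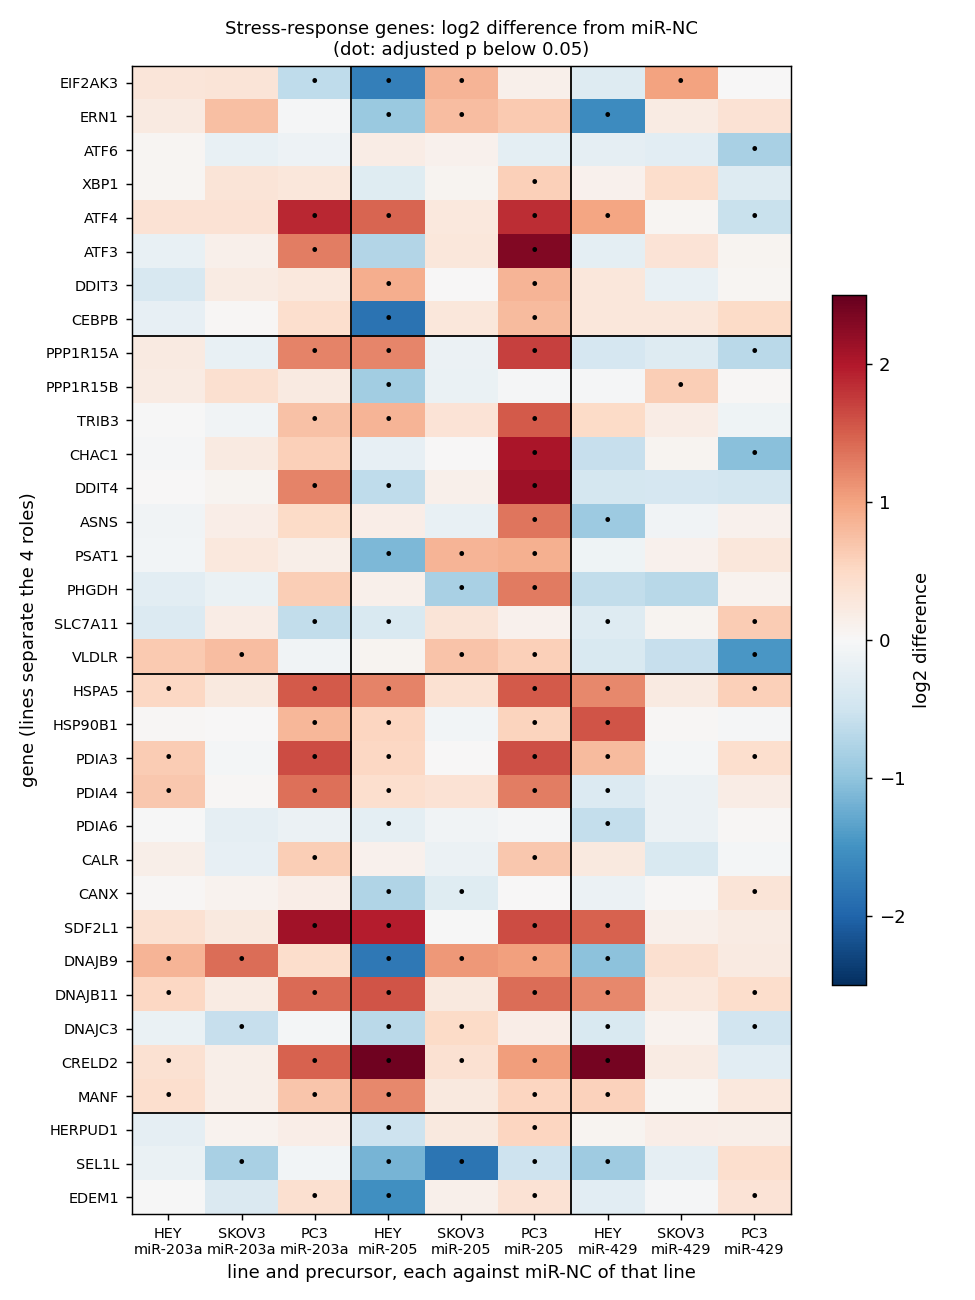
Log2 difference from miR-NC of the same line (colour) for the 34 genes (rows, grouped by role) in the 9 comparisons (columns), where a dot marks an adjusted p below 0.05. PC3 with miR-205 has 25 dotted rises, PC3 with miR-203a has 15, and SKOV3 with miR-429 has 2 dots.

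Chaperones and folding enzymes of the ER made up 13 of the members. In PC3 cells 9 of the 13 rose with miR-203a and 10 with miR-205, and the median differences were 0.83 and 1.02. Of all genes, 31.1% and 28.7% were called higher there. In HEY cells 8 rose and 4 fell with miR-205, 7 rose and 4 fell with miR-429, and 7 rose with miR-203a. The shares of all genes called higher there were 33.6%, 21% and 5.82%. With miR-205 and miR-429, 32.2% and 35.7% were called lower. In SKOV3 cells 3 rose and 1 fell with miR-205, 1 rose and 1 fell with miR-203a, and none was called with miR-429. Without the arrays labelled untransfected DNAJB9 rose and CALR fell with miR-429. Of all genes in SKOV3, 16.8% were higher and 8.81% lower with miR-205, 7.06% and 4.88% with miR-203a, and 14.9% and 7.18% with miR-429.

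HSPA5, the central ATP-dependent chaperone of the ER, was at 10.44, 10.68 and 10.75 in the PC3 miR-NC arrays. It was at 12.20, 12.25 and 12.04 with miR-203a, at 12.14, 12.06 and 12.29 with miR-205, and at 11.25, 11.56 and 10.86 with miR-429. All 9 arrays with a microRNA precursor lay above the 3 controls. The rises were 1.54 ± 0.15 (SE) with miR-203a, 1.54 ± 0.15 with miR-205 and 0.60 ± 0.15 with miR-429, which is 2.90-fold, 2.91-fold and 1.51-fold (limma adjusted p = 6.3e-11, 8.41e-11 and 0.00127).

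In HEY cells HSPA5 was at 11.76, 11.82 and 11.62 with miR-NC and at 12.19, 12.32 and 12.23 with miR-203a. It read 12.88, 12.99 and 13.03 with miR-205 and 13.06, 12.85 and 12.88 with miR-429. None of these groups overlapped the control, and the rises were 0.52 ± 0.15, 1.23 ± 0.15 and 1.20 ± 0.15. The call with miR-203a was lost without replicate 2 of HEY miR-203a (adjusted p = 0.0627), without replicate 3 of HEY miR-NC (0.0756) and in a fit of HEY arrays alone (0.139). In SKOV3 cells HSPA5 read 12.25, 12.31 and 12.32 with miR-NC, 12.55, 12.58 and 12.50 with miR-203a, 12.70, 12.68 and 12.65 with miR-205, and 12.59, 12.51 and 12.46 with miR-429. The SKOV3 differences of 0.25, 0.38 and 0.23 did not pass the test (adjusted p = 0.353, 0.0528 and 0.297), although the groups did not overlap, and the one with miR-205 passed without the arrays labelled untransfected (adjusted p = 0.0108). In a fit of SKOV3 arrays alone all 3 were called (adjusted p = 0.0329, 0.00123 and 0.0332).

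A second HSPA5 probe set did not follow the one used. It differed by 0.15 and 0.40 in PC3 with miR-203a and miR-205, neither called, and in HEY with miR-429 it fell by 1.31 where the brighter probe set rose. Averaged over both, the differences were −0.06 in HEY with miR-429, 0.04 in HEY with miR-203a and 0.36 in PC3 with miR-429 (adjusted p = 0.0777), and the last 2 lost their calls. The arrays labelled untransfected were also high for HSPA5, at 13.46, 12.66 and 12.52 for HEY, 12.29, 12.21 and 12.27 for SKOV3, and 12.66, 12.64 and 12.56 for PC3. With them as the control the PC3 differences turned to −0.46 with miR-203a and −0.46 with miR-205, and the HEY miR-203a difference to −0.63. The HEY rises with miR-205 and miR-429 were then no longer called (0.08 and 0.05). The line genes of the arrays labelled HEY and PC3 go against those labels, so these values also hold differences between lines.

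**Figure D2:**
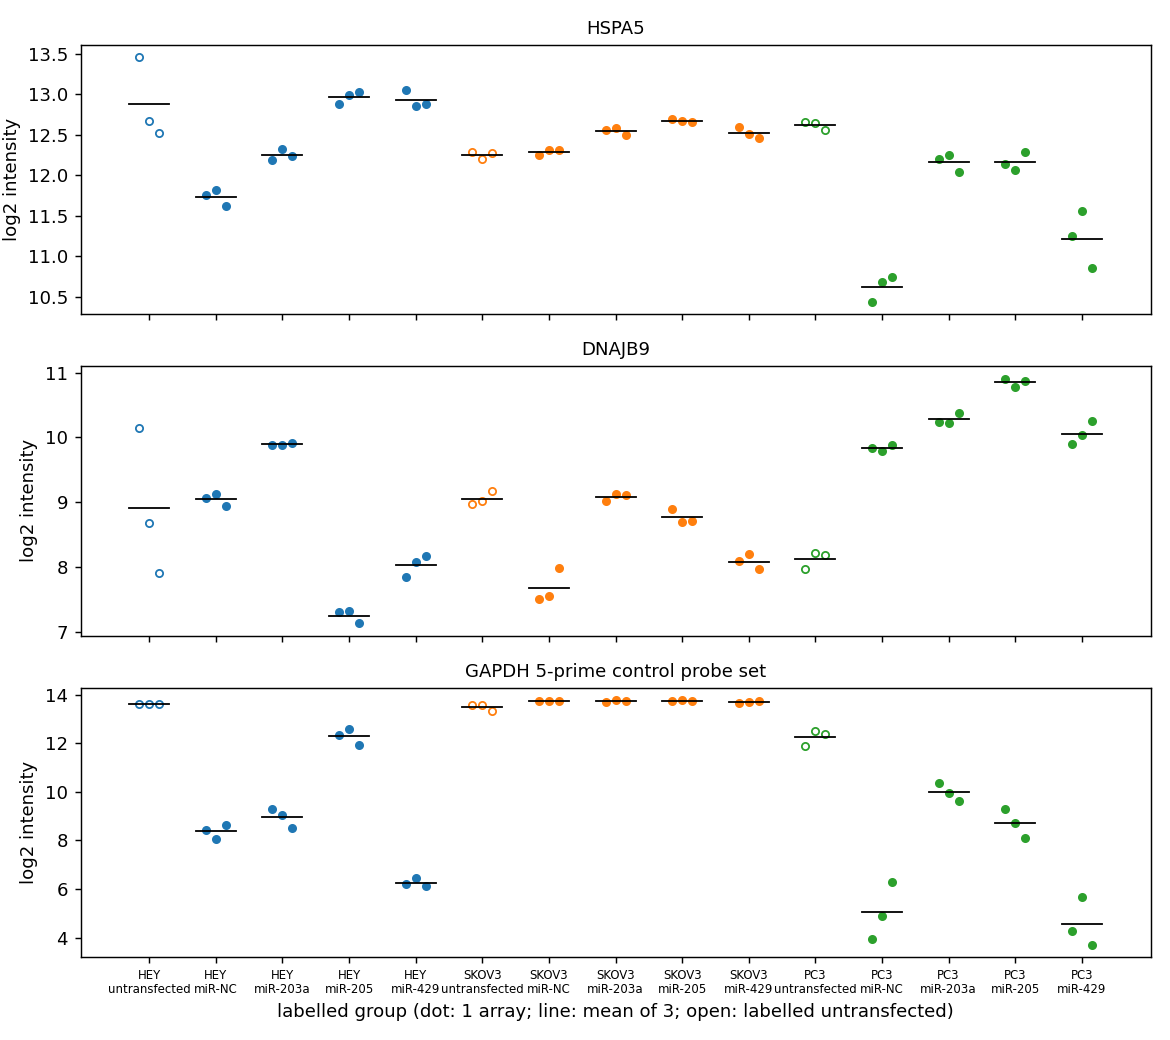
Log2 intensity of HSPA5, DNAJB9 and the 5′ GAPDH control probe set in each of the 45 arrays (dots) by labelled group, with the group mean as a line and arrays labelled untransfected as open dots. HSPA5 is lowest in PC3 miR-NC, DNAJB9 drops with miR-205 and miR-429 in HEY but not in SKOV3 or PC3, and the GAPDH probe set is near 13.7 in every transfected SKOV3 array.

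CRELD2 and SDF2L1, small ER-resident folding factors, responded differently in the 3 lines. CRELD2 was at 7.26, 7.15 and 7.32 in HEY miR-NC, at 9.65, 9.62 and 9.78 with miR-205, at 9.71, 9.58 and 9.61 with miR-429, and at 7.62, 7.84 and 7.43 with miR-203a. The miR-205 and miR-429 arrays lay far above the control arrays, by 2.44 ± 0.12 (5.42-fold, adjusted p = 2.15e-18) and 2.39 ± 0.12 (5.24-fold, adjusted p = 1.11e-17). In PC3 cells CRELD2 read 7.58, 7.17 and 7.32 with miR-NC, 8.90, 8.83 and 8.77 with miR-203a, and 8.22, 8.37 and 8.59 with miR-205. It rose there by 1.48 ± 0.12 with miR-203a and by 1.04 ± 0.12 with miR-205. In SKOV3 cells it was already at 9.72, 9.47 and 9.66 with miR-NC, and it rose by 0.38 ± 0.12 with miR-205 alone of the 3 precursors.

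SDF2L1 read 6.83, 6.57 and 6.85 in HEY miR-NC and 8.86, 8.53 and 8.74 with miR-205, a rise of 1.96 ± 0.15. In PC3 cells it went from 5.86, 5.85 and 5.74 with miR-NC to 8.04, 7.88 and 7.82 with miR-203a and to 7.56, 7.39 and 7.42 with miR-205. Those PC3 rises were 2.10 ± 0.15 (4.28-fold) and 1.64 ± 0.15 (3.12-fold), with no overlap between any of the 3 groups. In SKOV3 its differences were 0.24, −0.01 and 0.12 for miR-203a, miR-205 and miR-429, none called.

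Among other folding members in PC3, PDIA3, a disulfide isomerase for glycoproteins, rose by 1.63 ± 0.16 with miR-203a and 1.62 ± 0.16 with miR-205, although 1 of the 3 PC3 miR-NC arrays (9.56) lay below the other two (10.41 and 10.45). PDIA4, another disulfide isomerase, rose by 1.37 ± 0.14 and 1.28 ± 0.14, and DNAJB11, a cochaperone of HSPA5, by 1.41 ± 0.15 and 1.40 ± 0.15. HSP90B1, the ER member of the HSP90 family, rose by 0.83 and 0.55, CALR (calreticulin) by 0.62 and 0.67, and MANF, an ER-resident partner of HSPA5, by 0.68 and 0.54. PDIA6, CANX (calnexin) and DNAJC3 were not called in PC3 with either precursor. HSP90B1 gave one of the largest rises in HEY cells with miR-429, from 9.05, 9.25 and 9.45 to 10.63, 10.95 and 10.88 (1.57 ± 0.17), and its other probe set rose too (2.02).

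DNAJB9 (ERdj4), a cochaperone induced through ERN1 and XBP1, moved in opposite directions in the lines. In HEY cells it was at 9.07, 9.12 and 8.95 with miR-NC, at 9.88, 9.88 and 9.92 with miR-203a, at 7.30, 7.32 and 7.13 with miR-205, and at 7.84, 8.07 and 8.16 with miR-429. In SKOV3 cells it was at 7.51, 7.55 and 7.99 with miR-NC, at 9.02, 9.12 and 9.11 with miR-203a and at 8.89, 8.70 and 8.72 with miR-205. No group overlapped its control. It fell by 1.80 ± 0.25 with miR-205 (adjusted p = 6.27e-08) and by 1.02 ± 0.25 with miR-429 in HEY cells, and rose by 0.85 ± 0.25 there with miR-203a. It rose by 1.40 ± 0.25 with miR-203a and 1.09 ± 0.25 with miR-205 in SKOV3 cells and by 1.02 ± 0.25 with miR-205 in PC3 cells. The difference between the lines in the response to miR-205 passed the moderated F-test (adjusted p = 2.06e-09), and all 3 DNAJB9 probe sets fell in HEY with miR-205, by 1.80 to 3.15. The HEY rise with miR-203a was lost without replicate 3 of HEY miR-203a or of HEY miR-NC (adjusted p = 0.0523 and 0.0634) and in a fit of HEY arrays alone (0.227). PDIA4 was the second largest rise there, from 11.20, 11.24 and 11.20 to 11.80, 11.87 and 11.97 (0.67 ± 0.14).

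DNAJC3 (P58IPK), an HSPA5 cochaperone that also restrains the eIF2 kinases, went from 9.97, 10.33 and 10.29 in SKOV3 miR-NC to 9.40, 9.67 and 9.81 with miR-203a and to 10.70, 10.59 and 10.71 with miR-205. It fell by 0.57 ± 0.14 with miR-203a and rose by 0.47 ± 0.14 with miR-205. The fall was not called without replicate 1 of SKOV3 miR-203a (adjusted p = 0.061), nor in the mean of its probe sets (−0.47, adjusted p = 0.172). In HEY cells DNAJC3 also fell by 0.67 with miR-205 and by 0.38 with miR-429, and in PC3 cells it fell by 0.48 with miR-429. CANX, a lectin chaperone, fell by 0.75 in HEY and by 0.30 in SKOV3 with miR-205.

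The sensors did not move as a block. EIF2AK3, the kinase that links ER stress to eIF2, was at 7.78, 7.86 and 7.58 in HEY miR-NC and at 5.49, 6.21 and 6.39 with miR-205, a fall of 1.71 ± 0.19 on the log2 scale (3.27-fold lower). In SKOV3 cells it went from 7.87, 7.99 and 8.15 with miR-NC to 8.89, 8.78 and 8.89 with miR-205 and to 9.13, 8.75 and 9.15 with miR-429, rises of 0.86 ± 0.19 and 1.01 ± 0.19. In PC3 cells it read 8.57, 8.16 and 8.15 with miR-NC, 7.5, 7.54 and 7.95 with miR-203a and 8.46, 8.29 and 8.53 with miR-205. It fell by 0.63 ± 0.19 with miR-203a in PC3 and did not pass with miR-205 (0.13). The response to miR-205 differed between the lines (F-test adjusted p = 6.64e-10). EIF2AK3 had 1 probe set that passed the filter.

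ERN1, the kinase and RNase that splices XBP1, read 9.38, 9.11 and 9.18 in HEY miR-NC and 7.66, 7.82 and 7.51 with miR-429, a fall of 1.56 ± 0.29. It fell by 0.93 ± 0.29 with miR-205 in HEY and rose by 0.78 ± 0.29 with miR-205 in SKOV3, where another of its probe sets was called in the opposite direction. ATF6, the sensor that is cleaved in the Golgi, was lower in PC3 with miR-429 (−0.80 ± 0.16) and was not called in the other 8 comparisons with miR-NC. Its 4 probe sets disagreed: in PC3 with miR-205 they ranged from −0.94 to 1.03, with calls in both directions.

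XBP1 is the transcription factor that ERN1 activates by splicing, and its spliced form is not told apart here. PC3 arrays read 9.12, 9.15 and 8.70 with miR-NC, 9.31, 9.18 and 9.31 with miR-203a, 9.53, 9.53 and 9.70 with miR-205, and 8.49, 8.76 and 8.74 with miR-429. HEY arrays read 9.42, 9.48 and 9.62 with miR-NC, 9.67, 9.56 and 9.43 with miR-203a, 9.12, 9.35 and 9.17 with miR-205, and 9.74, 9.43 and 9.64 with miR-429. SKOV3 arrays read 9.22, 9.13 and 9.31 with miR-NC, 9.52, 9.53 and 9.57 with miR-203a, 9.27, 9.27 and 9.34 with miR-205, and 9.63, 9.75 and 9.62 with miR-429. With all arrays in the fit, the PC3 miR-205 rise (0.60 ± 0.19, adjusted p = 0.0106) was the 1 XBP1 call of the 9 comparisons with miR-NC. Without the arrays labelled untransfected 5 more were called. These were PC3 miR-203a (0.28, adjusted p = 0.0275), PC3 miR-429 (−0.33, 0.0133), SKOV3 miR-203a (0.32, 0.0437), SKOV3 miR-429 (0.44, 0.00214) and HEY miR-205 (−0.29, 0.0178). The PC3 miR-205 call was lost without replicate 3 of PC3 miR-NC (adjusted p = 0.0842), and the other XBP1 probe set fell by 0.87 in the same comparison, so that the mean of both differed by −0.14. Arrays labelled untransfected read 10.67, 9.27 and 9.16 for HEY, 9.34, 9.26 and 9.31 for SKOV3, and 8.87, 8.85 and 8.87 for PC3.

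ATF4, the central factor of the integrated stress response, is controlled mostly in translation, and the array measures only its RNA. In PC3 cells it read 9.47, 10.02 and 10.03 with miR-NC, 11.87, 11.74 and 11.56 with miR-203a, 11.68, 11.56 and 11.83 with miR-205, and 9.44, 9.39 and 9.0 with miR-429. The miR-203a and miR-205 arrays stood more than 1 log2 unit above the controls. The rises were 1.89 ± 0.18 (3.70-fold) and 1.85 ± 0.18 (3.61-fold), and ATF4 fell by 0.56 ± 0.18 with miR-429. That fall was not called without replicate 3 of PC3 miR-429 or replicate 2 or 3 of PC3 miR-NC, nor with array medians subtracted (−0.15).

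In HEY cells ATF4 read 11.41, 11.25 and 11.59 with miR-NC, 11.96, 11.92 and 11.47 with miR-203a, 12.87, 12.78 and 12.97 with miR-205, and 12.46, 12.41 and 12.37 with miR-429. It rose by 1.45 ± 0.18 with miR-205 and by 1.00 ± 0.18 with miR-429. In SKOV3 cells it read 12.29, 12.49 and 12.15 with miR-NC, 12.64, 12.64 and 12.76 with miR-203a, 12.62, 12.50 and 12.58 with miR-205, and 12.44, 12.33 and 12.30 with miR-429, with no call. In a fit of SKOV3 arrays alone ATF4 was called with miR-203a (0.37, adjusted p = 0.0152) and with miR-205 (0.26, 0.0493). Arrays labelled untransfected read 13.15, 12.02 and 12.20 for HEY, 12.17, 12.26 and 12.27 for SKOV3, and 12.19, 12.13 and 12.13 for PC3. Against those labelled PC3, the PC3 differences were −0.42 with miR-203a and −0.46 with miR-205.

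ATF3, a stress-induced factor downstream of ATF4, gave the largest rise of any member in PC3 with miR-205. PC3 arrays read 7.07, 7.06 and 7.67 with miR-NC, 8.65, 8.56 and 8.41 with miR-203a, 9.39, 9.51 and 9.87 with miR-205, and 7.22, 7.71 and 7.10 with miR-429. The controls, miR-203a and miR-205 formed 3 separate levels. ATF3 rose by 1.27 ± 0.38 with miR-203a and by 2.32 ± 0.38 with miR-205 (5.01-fold, adjusted p = 4.05e-06). Its other probe sets rose by less with miR-205 (1.30, called, and 0.52, not called).

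In HEY cells ATF3 read 6.80, 7.0 and 6.92 with miR-NC, 6.80, 6.87 and 6.46 with miR-203a, 5.94, 6.44 and 6.14 with miR-205, and 6.60, 6.48 and 6.91 with miR-429. In SKOV3 cells it read 5.75, 5.68 and 5.39 with miR-NC, 5.66, 5.90 and 5.65 with miR-203a, 6.23, 5.69 and 5.74 with miR-205, and 5.96, 5.92 and 5.99 with miR-429. None of these 6 differences was called. Without the arrays labelled untransfected the HEY miR-205 difference of −0.74 was (adjusted p = 0.00062). Leaving out cross-matching probe sets turned the HEY differences to 0.62 with miR-205 and 1.77 with miR-429, and the PC3 miR-429 difference from 0.07 to −0.64. Arrays labelled untransfected read 9.16, 6.15 and 6.07 for HEY, 6.64, 6.74 and 6.78 for SKOV3, and 6.64, 6.62 and 6.43 for PC3.

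DDIT3, which promotes cell death when stress persists, rose in the 2 groups HEY with miR-205 and PC3 with miR-205. HEY arrays read 7.60, 7.55 and 7.65 with miR-NC, 7.32, 7.19 and 7.07 with miR-203a, 8.56, 8.37 and 8.59 with miR-205, and 7.77, 7.73 and 8.15 with miR-429. PC3 arrays read 7.38, 7.58 and 8.02 with miR-NC, 8.15, 7.96 and 7.64 with miR-203a, 8.50, 8.13 and 8.87 with miR-205, and 7.82, 7.95 and 7.33 with miR-429. The rises were 0.91 ± 0.24 in HEY and 0.84 ± 0.24 in PC3 (adjusted p = 0.00112 and 0.0036). SKOV3 arrays read 8.60, 8.59 and 8.57 with miR-NC, 8.84, 8.79 and 8.73 with miR-203a, 8.89, 8.50 and 8.42 with miR-205, and 8.44, 8.41 and 8.37 with miR-429, with no call. The highest DDIT3 values of the series were in arrays labelled untransfected, at 11.33, 9.70 and 9.87 for HEY and 9.16, 9.43 and 9.33 for SKOV3, against 8.21, 8.06 and 8.0 for PC3.

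CEBPB, a partner of DDIT3 and ATF4, had the largest fall of the members in HEY with miR-205. It went from 10.31, 10.25 and 10.42 to 7.90, 8.63 and 8.92, a fall of 1.84 ± 0.22 (3.58-fold lower, adjusted p = 3.1e-09). In PC3 it rose by 0.79 ± 0.22 with miR-205, and the line difference passed the F-test (adjusted p = 5.65e-09).

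The role named integrated stress response targets made up 10 of the members, among them amino acid enzymes, a transporter, feedback proteins and a lipoprotein receptor. It counts PPP1R15B, a constitutive protein. ATF3 and DDIT3, which act downstream of ATF4, are counted with the sensors and transcription factors instead. In PC3 cells 8 rose with miR-205, 3 rose and 1 fell with miR-203a, and 1 rose and 3 fell with miR-429. Of all genes, 28.7% were higher with miR-205, 31.1% higher and 25% lower with miR-203a, and 16.3% and 29.7% with miR-429. In HEY cells 2 rose and 4 fell with miR-205 and 2 fell with miR-429. The shares of all genes were 33.6% higher and 32.2% lower with miR-205, and 35.7% lower with miR-429. Without the arrays labelled untransfected 7 of the 10 fell and 1 rose with miR-429, where that fit called 60.1% of all genes. In SKOV3 cells 2 rose and 1 fell with miR-205 and 1 rose with each of the other precursors. Of all genes there, 16.8% were higher and 8.81% lower with miR-205, and 7.06% and 14.9% were higher with miR-203a and miR-429. No member of this role was called in HEY with miR-203a.

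DDIT4 (REDD1), an inhibitor of mTORC1, read 8.54, 8.67 and 9.0 in PC3 miR-NC, 10.16, 9.94 and 9.84 with miR-203a and 10.58, 10.83 and 11.16 with miR-205. The groups did not overlap, and DDIT4 rose by 1.25 ± 0.26 and by 2.12 ± 0.26 (4.36-fold). CHAC1, which degrades glutathione, read 6.33, 5.85 and 4.99 with miR-NC, 6.38, 6.36 and 6.23 with miR-203a and 7.52, 7.78 and 8.01 with miR-205. It rose by 2.05 ± 0.44 with miR-205 and was not called with miR-203a (0.60). With miR-429 it was at 4.56, 4.72 and 4.74, below the median of all values, and the fall of 1.05 ± 0.44 (adjusted p = 0.0493) was not called without any 1 of 5 of the 6 arrays, replicate 3 of PC3 miR-NC being the exception, nor under quantile normalization, subtracted array medians, a stricter filter or a robust prior.

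ASNS (asparagine synthetase) went from 9.93, 9.77 and 9.84 in PC3 miR-NC to 10.98, 11.14 and 11.40 with miR-205, a rise of 1.33 ± 0.22. PHGDH and PSAT1, enzymes of serine synthesis, rose by 1.30 ± 0.29 and 0.88 ± 0.15, TRIB3, a pseudokinase that curbs ATF4, by 1.53 ± 0.32, and PPP1R15A (GADD34), which directs eIF2 dephosphorylation, by 1.71 ± 0.27. With miR-203a the rises of PPP1R15A (1.24) and TRIB3 (0.74) were called and those of ASNS (0.48), PHGDH (0.61) and PSAT1 (0.14) were not. PPP1R15B, the constitutive counterpart of PPP1R15A, differed by −0.02 in PC3 with miR-205.

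PSAT1 also rose in SKOV3 with miR-205 (0.85 ± 0.15) and fell by 1.12 ± 0.15 in HEY with the same precursor. PHGDH read 8.10, 7.88 and 7.91 in SKOV3 miR-NC and 7.07, 7.13 and 7.28 with miR-205. That fall of 0.81 ± 0.29 (adjusted p = 0.0343) was not called when any 1 of the 6 arrays was left out (adjusted p = 0.0537 to 0.111). PPP1R15B rose in SKOV3 with miR-429, from 9.07, 9.12 and 9.63 to 9.97, 9.79 and 9.88 (0.61 ± 0.16), and fell by 0.88 ± 0.16 in HEY with miR-205.

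SLC7A11, the cystine and glutamate exchanger, read 10.64, 10.58 and 10.52 in PC3 miR-NC, 10.04, 9.90 and 9.94 with miR-203a, 10.58, 10.82 and 10.69 with miR-205, and 11.20, 11.06 and 11.36 with miR-429. It fell by 0.62 ± 0.13 with miR-203a and rose by 0.63 ± 0.13 with miR-429. Neither was called in the mean of its 3 probe sets (−0.26 and 0.10), and with miR-429 another probe set fell by 0.59. VLDLR, a lipoprotein receptor that ATF4 can induce, went from 6.20, 6.48 and 6.37 in PC3 miR-NC to 4.97, 4.85 and 4.89 with miR-429, a fall of 1.45 ± 0.23 to about the median of all values. In SKOV3 it read 7.20, 6.70 and 7.05 with miR-NC and 7.71, 7.76 and 7.77 with miR-203a. That rise of 0.76 ± 0.23 was not called when any of the 3 SKOV3 miR-203a arrays, or replicate 2 or 3 of SKOV3 miR-NC, was left out (adjusted p up to 0.159).

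Of the 3 degradation members, SEL1L, the scaffold of the ubiquitin ligase that clears misfolded ER proteins, fell with miR-205 in each line. HEY arrays went from 11.53, 11.48 and 11.53 with miR-NC to 10.10, 10.59 and 10.39 with miR-205. SKOV3 arrays went from 9.04, 9.20 and 9.21 to 7.31, 7.20 and 7.43, and PC3 arrays from 11.68, 11.82 and 11.80 to 11.31, 11.37 and 11.09. No pair of groups overlapped, and SEL1L fell by 1.15 ± 0.19, by 1.83 ± 0.19 (3.56-fold lower, adjusted p = 2.09e-09) and by 0.51 ± 0.19. The PC3 call was lost without replicate 3 of PC3 miR-205 or without replicate 2 or 3 of PC3 miR-NC, and in the mean of its probe sets, since 1 of the 4 rose there (0.58) while another fell by 1.59. In SKOV3 SEL1L also fell by 0.81 ± 0.19 with miR-203a, to 8.34, 8.53 and 8.14.

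EDEM1, which hands misfolded glycoproteins to degradation, fell by 1.53 ± 0.13 in HEY with miR-205 (adjusted p = 7.06e-13) and rose by 0.34 to 0.40 in PC3 with each of the 3 precursors. HERPUD1, a membrane protein of the same ligase complex, fell by 0.53 ± 0.18 in HEY and rose by 0.54 ± 0.18 in PC3 with miR-205.

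The response of the members to a precursor often differed between the lines. By the moderated F-test 16 of 34 members differed between lines for miR-203a, 30 for miR-205 and 22 for miR-429, where 44.9%, 69.6% and 66.5% of all genes did. The 3 lines' responses rest on miR-NC arrays that differ between lines in the 5′ GAPDH control (8.37 in HEY, 13.74 in SKOV3 and 5.04 in PC3), and the part of that in these counts was not tested.

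In PC3 cells miR-205 and miR-203a can be compared directly and without miR-NC. In the direct comparison 8 members were higher and 2 lower with miR-205, against 12.9% and 11.9% of all genes, and the members' median was 0.27 against −0.03. The targets of the integrated stress response were higher with miR-205 in 6 of 10 cases by the test, while 2 of the 13 folding factors were called, both lower. These roles were assigned with the values seen, so the split between them is a description only. The 5′ GAPDH control read 9.99 with miR-203a and 8.70 with miR-205. Without the arrays labelled untransfected, 16 members were higher and 3 lower, and 9 of the 10 targets were higher against 1 of 13 folding factors. That fit called 30.6% of all genes, higher and lower together. Without replicate 3 of PC3 miR-205, 5 members were called.

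CHAC1 was 1.44 ± 0.44 higher with miR-205 than with miR-203a (2.72-fold, adjusted p = 0.0137), a call lost without replicate 3 of PC3 miR-205 (adjusted p = 0.054). ATF3 was 1.05 ± 0.38 higher (adjusted p = 0.0395). That call was lost when any 1 of the 6 arrays was left out, and another ATF3 probe set was called lower (−0.70). DDIT4 was 0.88 ± 0.26 higher, ASNS 0.85 ± 0.22, EIF2AK3 0.77 ± 0.19, PSAT1 0.74 ± 0.15, SLC7A11 0.74 ± 0.13 and VLDLR 0.68 ± 0.23. The other PSAT1 probe set differed by −0.02. TRIB3 (0.79), PHGDH (0.68), DDIT3 (0.58) and ERN1 (0.69) did not pass the test (adjusted p = 0.0718, 0.0809, 0.0708 and 0.0779), but all 4 did without the arrays labelled untransfected. DDIT3 was also called under quantile normalization (adjusted p = 0.0407) and without replicate 2 of PC3 miR-205 (0.0339).

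Of the 13 folding factors, 11 did not pass the test between the same groups. DNAJB9 differed by 0.57 (95% interval 0.07 to 1.07) and was called higher with miR-205 without the arrays labelled untransfected (adjusted p = 0.000185). The difference was 0.00 for HSPA5 (95% interval −0.30 to 0.30), −0.02 for PDIA3 (−0.35 to 0.31), within 0.01 of 0 for DNAJB11 (−0.31 to 0.30) and −0.09 for PDIA4 (−0.37 to 0.19). ATF4 RNA differed by −0.03 (−0.39 to 0.33), while 6 of the 10 targets were called higher. SDF2L1 and CRELD2 were lower with miR-205, by −0.46 ± 0.15 and −0.44 ± 0.12. The SDF2L1 call was lost without replicate 2 or 3 of PC3 miR-205 or replicate 1 of PC3 miR-203a (adjusted p up to 0.101), and that of CRELD2 without replicate 1 of PC3 miR-205 (0.0688).

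The 8 members with either ER stress element differed in both directions between PC3 miR-205 and miR-203a. CRELD2 and SDF2L1 were lower (−0.44 and −0.46), and the other 6 were not called, at 0.00 for HSPA5, 0.04 for CALR, −0.16 for CANX, −0.28 for HSP90B1, 0.32 for XBP1 and 0.37 for HERPUD1. Without the arrays labelled untransfected XBP1 (limma adjusted p = 0.0255) and HERPUD1 were called higher. Of the 5 members with the ATF4 core, ASNS, CHAC1 and ATF3 were higher (0.85, 1.44 and 1.05). The ATF3 call was lost when any 1 of the 6 arrays was left out, and another ATF3 probe set was called lower. PPP1R15B (−0.24) and HERPUD1, which holds both kinds of element, were not called with all arrays in the fit.

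**Figure D3:**
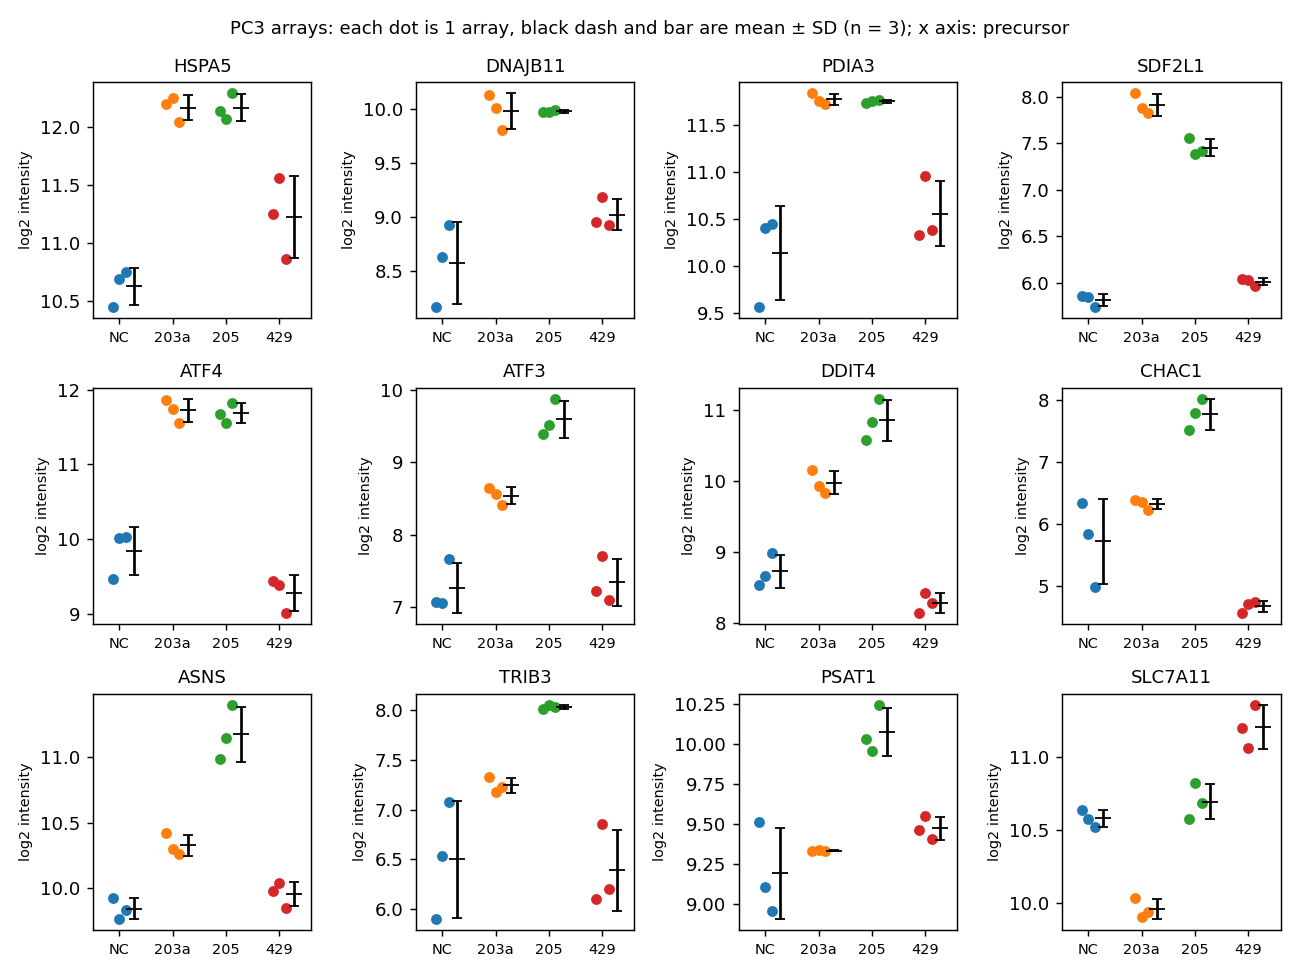
Log2 intensity of 12 members in each PC3 array (dots, 3 per precursor) with the mean ± SD (black), where the axis of each panel covers only its own range. HSPA5, DNAJB11, PDIA3 and ATF4 sit at like levels with miR-203a and miR-205, whereas ATF3, DDIT4, CHAC1 and ASNS are higher with miR-205.

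**Figure D4:**
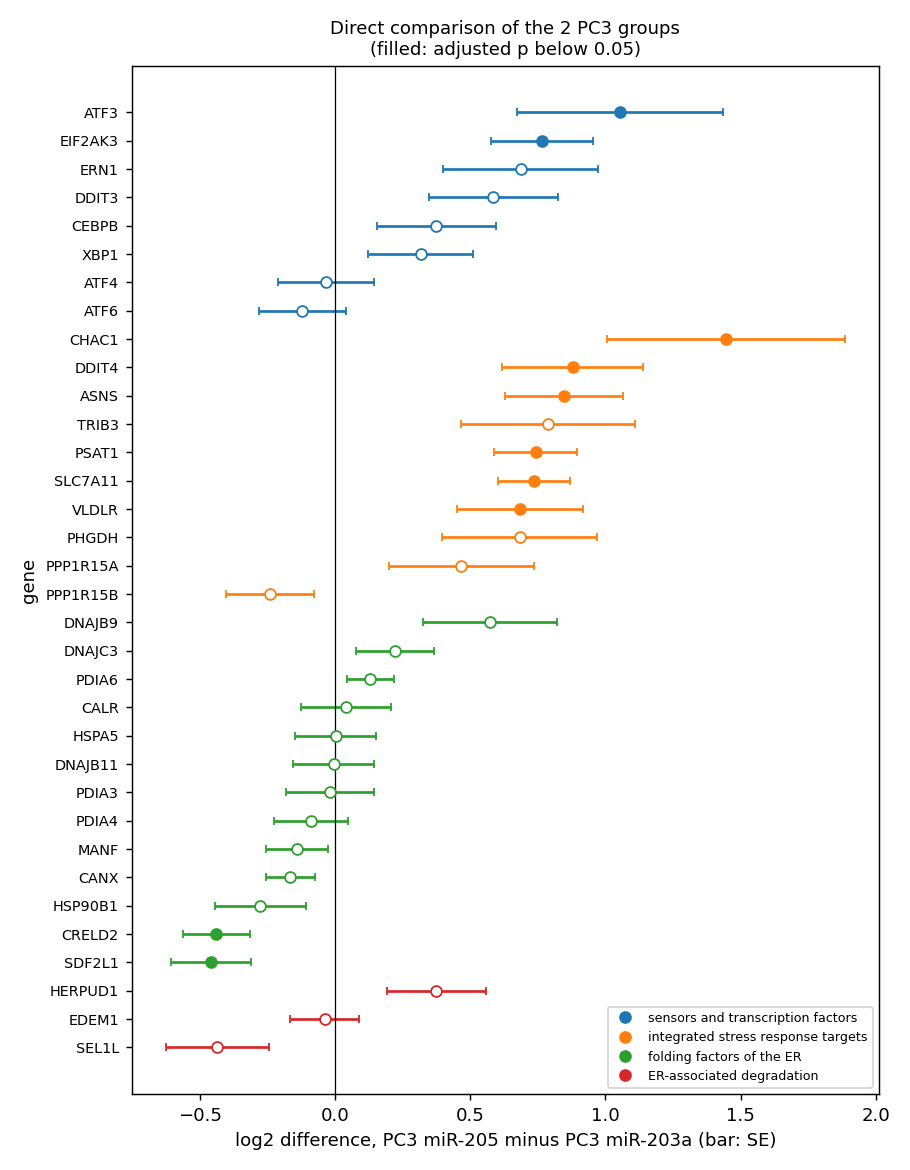
Difference in log2 intensity between PC3 miR-205 and PC3 miR-203a (points) with its SE (bars) for the 34 genes, coloured by role and filled where the adjusted p is below 0.05. CHAC1 is at 1.44, HSPA5 at 0.00 and SDF2L1 at −0.46.

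Of 37 other ATF4 and amino acid response genes tested, 23 were higher in PC3 with miR-205 (median 0.69), and 15 were higher and 3 lower with miR-203a (median 0.31). The shares of all genes were 28.7% higher with miR-205, and 31.1% higher and 25% lower with miR-203a. In the direct comparison 8 were called, all higher with miR-205, where 12.9% of all genes were called higher and 11.9% lower. SESN2 (sestrin), a stress-induced inhibitor of mTORC1, was 1.28 ± 0.32 higher and SLC1A4, a neutral amino acid transporter, 1.14 ± 0.22 higher. Of 24 other folding genes, 4 were higher and 3 lower in that comparison, near the shares of all genes. P4HB, a disulfide isomerase that rose by 2.72 with miR-203a and 2.31 with miR-205, did not pass limma's test there (−0.41, adjusted p = 0.0552). Of 19 other sensors and regulators, 4 were higher and 3 lower. EIF2AK2 (PKR), the eIF2 kinase that binds double-stranded RNA and is induced by interferon, was 1.31 ± 0.12 higher with miR-205 than with miR-203a.

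In HEY cells with miR-205, 16 of those 37 ATF4 and amino acid genes were higher and 14 lower, with EIF4EBP1, a translation repressor, at 2.90 and SESN2 at 2.75. Of all genes, 33.6% were called higher and 32.2% lower in that comparison. VCP and UFD1, which extract proteins from the ER membrane, led the other 17 degradation genes (9 higher, 6 lower) at 3.12 and 2.94. Of 12 cytosolic heat shock genes tested, which answer to another stress pathway, 6 were higher and 1 lower in HEY with miR-205, 8 and 1 in PC3 with miR-205, and 6 and 1 in PC3 with miR-203a. In PC3, 28.7% of all genes were higher and 19.7% lower with miR-205, and 31.1% and 25% with miR-203a. HSPB1, the small heat shock protein HSP27, rose by 3.90 in PC3 with miR-205 and by 3.98 with miR-203a.

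Under the control precursor the members' levels also differed between lines. SKOV3 miR-NC had 15 members higher and 12 lower than HEY miR-NC, against 35% and 43.4% of all genes. PC3 miR-NC had 7 higher and 17 lower than HEY miR-NC, against 25.5% and 31.1%. PC3 miR-NC had 11 higher and 17 lower than SKOV3 miR-NC, against 44.2% and 36.9%. SDF2L1 (−2.98 ± 0.15), PPP1R15A (−2.58 ± 0.27) and ATF4 (−2.47 ± 0.18) were lower in PC3 than in SKOV3 control cells, and ERN1 (3.51 ± 0.29) was higher. For HSPA5 the order from low to high was PC3, HEY and SKOV3, with means 10.62, 11.73 and 12.29 and no overlap between neighbours. Its other probe set put PC3 above SKOV3 (1.72), so the order rests on the probe set.

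Of the 34 members, 19 had more than 1 probe set that passed the filter. In HEY with miR-429 probe sets of 9 members were called in both directions: ATF6, CANX, DNAJC3, HSPA5, PDIA3, PDIA4, PDIA6, SEL1L and SLC7A11. In HEY with miR-205 there were 5 (DNAJC3, HERPUD1, PDIA3, PDIA4 and SLC7A11), in PC3 with miR-205 there were 4 (ATF6, CANX, SEL1L and XBP1) and in PC3 with miR-203a there were 2 (ATF6 and SEL1L). One member each was split in SKOV3 with miR-205 (ERN1), in PC3 with miR-429 (SLC7A11) and in the direct comparison (ATF3). Between the lines under miR-NC, 9 members were split for SKOV3 against HEY, 3 for PC3 against HEY and 10 for PC3 against SKOV3. None was split in HEY with miR-203a or in SKOV3 with miR-203a or miR-429. Members with 1 probe set past the filter, among them ATF4, CRELD2, SDF2L1, DNAJB11, MANF, EIF2AK3, CHAC1 and CEBPB, have no such check.

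**Figure D5:**
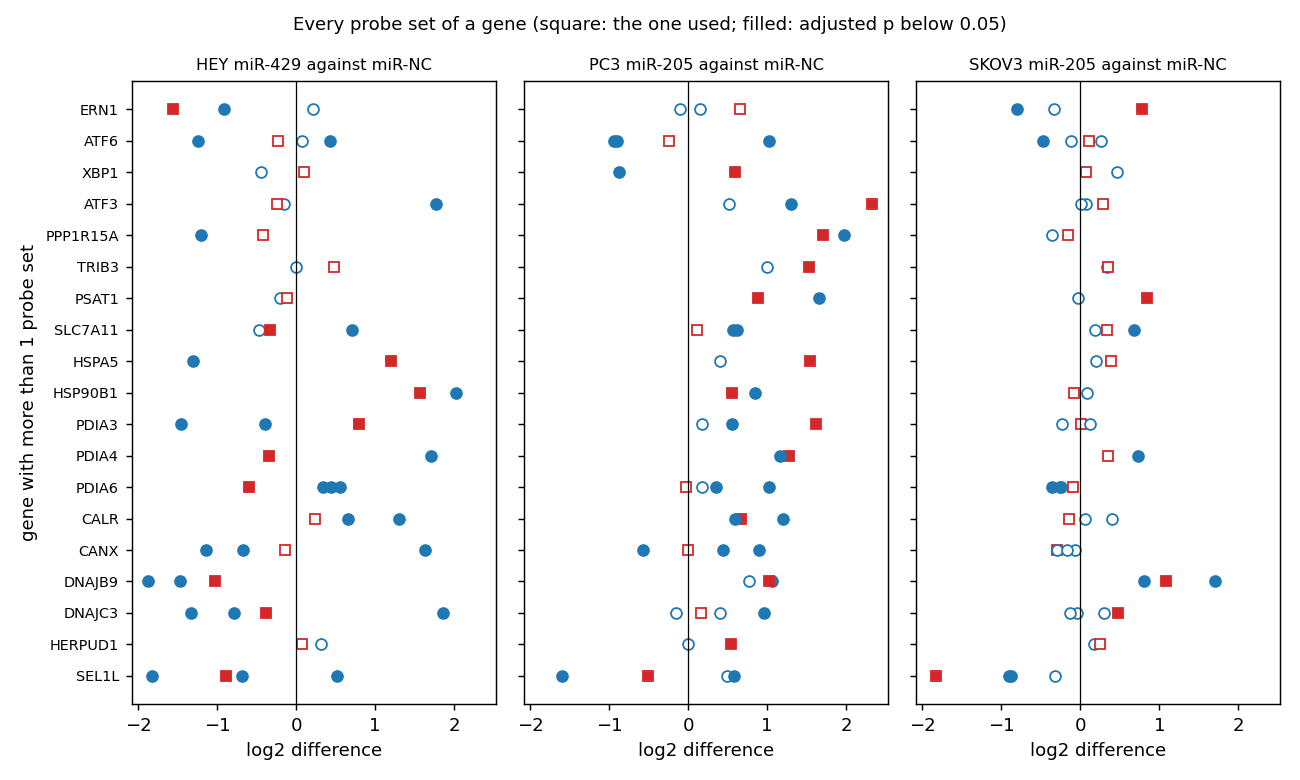
Log2 difference from miR-NC of every probe set (dots, or squares for the one used) of the 19 genes with more than 1 past the filter, in 3 comparisons, filled where the adjusted p is below 0.05. In HEY with miR-429 the 2 HSPA5 probe sets lie at 1.20 and −1.31, while in SKOV3 with miR-205 most lie near 0.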

How the data were processed

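RNA of 3 cell lines was measured on 45 arrays of 54675 probe sets. The log2 intensities were deposited by the authors after RMA, per the submitters' processing notes (version not given in the sources used here), and RMA sets most arrays to a like distribution, so a shift of all genes would be hidden. Probe sets with 1 gene symbol (41097; 1801 had several and 11777 none) were kept where the highest group mean exceeded the median of all values (4.89), and the brightest was used per gene. Differences were tested with limma 3.58.1 (R 4.3.3) in 1 fit of all arrays with 15 group means, with Benjamini-Hochberg adjustment over 15599 genes and a threshold of 0.05. The code was tested on simulated data.

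The members and lists were chosen with earlier results of these data known, and the 4 roles were assigned with the values seen. Values of every array are given for HSPA5, XBP1, ATF4, DDIT3 and ATF3 and, per comparison, for up to 2 called members with the largest rise and 2 with the largest fall, with some further members chosen after their values were seen. Of other lists, up to 2 called genes are named per comparison, in the comparisons described. P4HB in the direct comparison was named after its value was seen.

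Labels number the replicates alike in every group. Deviations of same-numbered arrays had median correlations of 0.02, 0.00018 and 0.02 (HEY, SKOV3, PC3), with 1, 1 and 3 of 30 pairs above 0.1, so the numbers do not pair the arrays. Alternatives were a fit per line, a fit without the arrays labelled untransfected, those arrays as the control, a replicate block, other scalings, filters, probe set rules and priors, and leaving out each array in turn. Tables were handled with Python 3.11.15, numpy 2.4.6 and pandas 2.3.3, and drawn with matplotlib 3.10.9.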

Additional observations from a re-analysis of the deposited data

Results flagged for a closer look

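The response to a precursor differed between the 3 lines, by the moderated F-test, for 16 members with miR-203a, 30 with miR-205 and 22 with miR-429. Of all genes, 44.9%, 69.6% and 66.5% differed in the same order. The values below are the log2 gap between the line with the highest and the line with the lowest difference from miR-NC. With miR-203a the gap was 1.86 for SDF2L1, 1.32 for CRELD2, 1.69 for PDIA3 and 1.52 for ATF4, with PC3 the highest of the 3 lines for each of them. With miR-205 it was 2.06 for CRELD2 and 1.97 for SDF2L1, both highest in HEY. It was 1.90 for EDEM1 and 2.01 for PSAT1, both lowest in HEY. With miR-429 it was 2.65 for CRELD2, 1.60 for HSP90B1, 1.36 for SDF2L1 and 1.56 for ATF4, each highest in HEY.

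Several members read higher in each of 3 arrays labelled untransfected than in any transfected array of the series, a difference that was not tested. In those labelled HEY the mean was 10.30 for DDIT3, 10.05 for TRIB3, 11.56 for HSP90B1 and 12.44 for PSAT1. In those labelled SKOV3 it was 9.31 for DDIT3, 10.45 for TRIB3, 11.71 for ASNS, 8.43 for CHAC1, 11.30 for HERPUD1 and 10.46 for PHGDH. In those labelled PC3 it was 11.33 for HSP90B1. Groups of 3 arrays are too small for the check on single outlying arrays.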

How the results depend on the processing

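Counts of called members are given here where an alternative moved them by over 1.5 times. A fit per line gave 2 for HEY miR-203a, 9 for SKOV3 miR-203a, 16 for SKOV3 miR-205, 11 for SKOV3 miR-429 and 17 for PC3 miR-205 against miR-203a. Of all genes, 6.74%, 17.2%, 35.7%, 32.2% and 26.8% were called there. Without the arrays labelled untransfected, SKOV3 miR-203a and miR-429 each gave 7 and the direct PC3 comparison 19. That fit called 15.7%, 27.8% and 30.6% of all genes in these comparisons. With the arrays labelled untransfected as the control the count was 28 for HEY miR-203a (82.1% of all genes called) and 25 for HEY miR-429 (80.3%). It was 26 for SKOV3 miR-203a (73.3%), 24 for SKOV3 miR-205 (73.5%), 23 for SKOV3 miR-429 (75.4%) and 28 for PC3 miR-429 (81.8%). Quantile normalization gave 6 for SKOV3 miR-205 (24.4% of all genes called) and 6 for SKOV3 miR-429 (22.1%), and subtracted array medians 20 for PC3 miR-429 (53.1%). Without cross-matching probe sets (IDs ending in s or x) the counts were 2 for SKOV3 miR-203a, 6 for SKOV3 miR-205 and 5 for the direct comparison. Of all genes tested in that setting, 11.4%, 24.9% and 23.7% were called. Only 27 members could be tested there. ASNS, DDIT4, HSP90B1, PSAT1, SDF2L1, SEL1L and VLDLR have no other probe set past the filter. Calls of these members were thus absent from those counts and not lost by a test. Leaving out 1 array gave 3 to 7 in HEY, 2 to 4 in SKOV3 and 16 to 18 in PC3 for miR-203a. For miR-205 it gave 22 to 25, 6 to 8 and 22 to 25. For miR-429 it gave 13 to 15, 2 to 3 and 7 to 10, where 7 was without replicate 2 of PC3 miR-429. It gave 5 to 9 for the direct comparison and 25 to 27, 20 to 24 and 27 for the lines under miR-NC (SKOV3 against HEY, PC3 against HEY, PC3 against SKOV3). With a replicate block the direct comparison had 10 called members and PC3 miR-205 had 26, and the block moved no count by over 1.5 times. Signs turned mostly with the arrays labelled untransfected as the control. With miR-203a these were HSPA5 (−0.63) and ATF4 (−0.67) in HEY, HSPA5 (−0.46), ATF4 (−0.42), EIF2AK3 (0.74) and SLC7A11 (0.73) in PC3, and DNAJC3 (0.78), DDIT3 (−0.52) and ATF3 (−0.99) in SKOV3. With miR-205 they were DDIT3 in HEY (−1.79), HSPA5 (−0.46), ATF4 (−0.46) and SEL1L (0.59) in PC3, and DDIT3 (−0.71), ATF3 (−0.83), EIF2AK3 (−0.12) and DNAJB9 (−0.29) in SKOV3. With miR-429 they were DDIT3 (−2.42), ATF4 (−0.044), HSP90B1 (−0.74) and ERN1 (0.75) in HEY, PPP1R15B in SKOV3 (−0.75) and HSPA5 in PC3 (−1.40). The mean of probe sets turned XBP1 in PC3 miR-205 (−0.14) and HSPA5 in HEY miR-429 (−0.056). Leaving out cross-matching probe sets turned ATF3 in HEY miR-205 (0.62), HEY miR-429 (1.77) and PC3 miR-429 (−0.64). The line genes of these control arrays go against their labels, and the cause of the other changes was not tested. For single named members, 446 of the values with 1 array left out kept direction and call, 39 lost the call and 1 gained it. Under the other settings 796 kept both, 21 lost the call, 28 gained it and 28 changed sign. The 3 arrays per group limit what small differences can be seen.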
